A study of Mus musculus with 3 samples.

Results

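The 8 genes described here, all of the conducting airway, were followed through scRNA-Seq of whole mouse lung: *Scgb1a1*, *Scgb3a1*, *Scgb3a2* and *Bpifa1*, whose products are secreted by airway cells, and *Foxj1*, *Tmem212*, *Ccdc153* and *Dynlrb2*, which belong to multiciliated cells. They were taken by gene symbol, and make up 8 of the 28692 genes listed in the count tables. The question was which captured cells hold them as airway cells, and how much of their RNA is seen in cells that should not make them. The lungs came from 3 WT C57BL/6 pups, here called mouse 2, mouse 3 and mouse 4, which had breathed room air from day 1 and were collected at P14. Each mouse is 1 library, there was 1 condition, and no transgene, deletion or drug was used. A level is given as unique molecular identifiers (UMIs, each standing for 1 captured RNA molecule) or as CPM, the gene's UMIs divided by all UMIs of the same cells and scaled to counts-per-million. Because these libraries count the 3′ ends of transcripts, neither is corrected for length, and levels are compared between cells rather than between genes.

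The conducting airway is lined mainly by club cells and by multiciliated cells. Club cells secrete small proteins called secretoglobins, detoxify inhaled compounds and can divide to replace other airway cells, and multiciliated cells carry the motile cilia that move mucus out of the lung. *Scgb1a1* encodes club cell secretory protein, and *Scgb3a1* and *Scgb3a2* encode related secretoglobins. *Bpifa1* encodes a secreted host defense protein that is also called SPLUNC1. *Foxj1* encodes the forkhead transcription factor that switches on the motile cilium program, *Dynlrb2* a light chain of the dynein motors, *Ccdc153* a coiled-coil protein of motile cilia and *Tmem212* a membrane protein known mainly as a marker of multiciliated cells. In droplet scRNA-Seq, RNA from broken cells floats in the suspension and enters every droplet, so an abundant secretory transcript can be counted in cells that never made it.

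Positions of 7 of the genes are given on the GRCm38 assembly, from GENCODE M21. *Scgb1a1* is at chr19:9083636-9087958 on the minus strand, *Scgb3a1* at chr11:49663610-49665118 on the plus strand, and *Bpifa1* at chr2:154142880-154149219 on the plus strand. *Foxj1* is at chr11:116330704-116335399 on the minus strand, *Tmem212* at chr3:27866066-27896368 on the minus strand, *Ccdc153* at chr9:44240676-44247306 on the plus strand and *Dynlrb2* at chr8:116504974-116515915 on the plus strand. *Tmem212* overlaps 1 small nucleolar RNA gene on the opposite strand, which the count tables do not list, and the other members overlap no annotated gene.

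The sequence before the start of 3 members is shown because ciliary genes and secretory genes are known to be switched on by different families of DNA-binding factors. RefSeq promoter sequence on GRCm38.p6 matched 5 of the 8 members, and the bases upstream of the gene start were searched on both strands for GTTGCC (a core bound by RFX factors, which act in ciliated cells), CAAGTG (a core bound by NKX2-1, a factor of lung epithelium) and TGTTTAC (a forkhead core). Capitals mark the match. *Ccdc153* is shown from chr9:44240427-44240675, plus strand, with GTTGCC 152 bases before the RefSeq start (44240677). *Dynlrb2* is shown from chr8:116504765-116504973, plus strand, with GTTGCC 51 bases before the RefSeq start (116505015, which lies 41 bases inside the gene as GENCODE places it, and the bases inside are not printed). *Scgb3a1* is shown from chr11:49663345-49663594, plus strand, with CACTTG, the reverse strand of CAAGTG, 174 bases before the RefSeq start (49663595).
Ccdc153: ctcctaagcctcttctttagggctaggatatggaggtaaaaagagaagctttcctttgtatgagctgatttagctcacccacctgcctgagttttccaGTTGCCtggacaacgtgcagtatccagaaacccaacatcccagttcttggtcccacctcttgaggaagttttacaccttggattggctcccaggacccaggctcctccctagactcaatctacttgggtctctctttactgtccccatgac
Dynlrb2: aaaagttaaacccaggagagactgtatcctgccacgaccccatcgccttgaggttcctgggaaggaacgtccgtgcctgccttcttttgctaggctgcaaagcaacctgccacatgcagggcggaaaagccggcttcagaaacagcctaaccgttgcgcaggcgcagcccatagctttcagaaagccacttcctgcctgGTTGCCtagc
Scgb3a1: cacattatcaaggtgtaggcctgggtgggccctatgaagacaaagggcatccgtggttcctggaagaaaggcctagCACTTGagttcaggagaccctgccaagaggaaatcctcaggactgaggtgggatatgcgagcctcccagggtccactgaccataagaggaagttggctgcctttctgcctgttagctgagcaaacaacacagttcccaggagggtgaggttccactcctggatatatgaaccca
Over the 250 bases upstream of 32851 RefSeq promoters, GTTGCC or its reverse GGCAAC stood in 10.4%, CAAGTG or its reverse in 11.6% and TGTTTAC or its reverse GTAAACA in 3.17%. *Bpifa1* and *Tmem212* held none of the motifs in this window. These are matches of letters and carry no measurement of binding.

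The deposited tables held 9644 cells with 71413428 UMIs. After cells with fewer than 200 detected genes or more than 20% mitochondrial UMIs were left out, 7642 cells remained, 2386 to 2655 per mouse, with a median of 4853 to 7119 UMIs per cell. Between 2 and 5 cell barcodes were shared by each pair of libraries. The cells fell into 32 clusters, which were named from marker genes that include none of the 8 members, and 10 clusters (1248 cells, median 1091 UMIs) stayed unnamed. The 8 members and 95 related pathway genes were not among the genes used for clustering either. They did count toward each cell's total UMIs, which enter the normalization of the other genes. In the sub-clustering of the airway cells, described below, they were left out of the totals too.

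A single cluster held the airway cells: 48 of 7642 kept cells, or 0.626% ± 0.149 (mean ± SD, n = 3 mice). Mouse 2 gave 14 of 2386 cells (0.587%, exact binomial 95% interval 0.321% to 0.983%), mouse 3 gave 13 of 2601 (0.4998%, 0.266% to 0.853%) and mouse 4 gave 21 of 2655 (0.791%, 0.490% to 1.21%). The 3 intervals overlap. Intervals and floors given here cover counting error only. These few cells were large. They held 3.78% of all kept UMIs, at a median of 38565 UMIs per cell against 6033.5 over all kept cells.

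The airway cells held nearly all UMIs of 7 of the 8 members. Of 687558 kept UMIs of *Scgb1a1*, 678735 lay in the 48 cells (98.8% ± 0.326, mean ± SD over 3 mice). The shares were 98.6% ± 0.307 for *Scgb3a1* (7860 of 7968 UMIs), 98.8% ± 0.269 for *Scgb3a2* (31179 of 31576), 98.3% ± 0.798 for *Foxj1* (774 of 787), 98.6% ± 1.47 for *Tmem212* (514 of 521) and 99.1% ± 0.603 for *Ccdc153* (751 of 758). *Bpifa1* was scarce, with 94 of 95 UMIs in these cells. *Dynlrb2* stood apart, with 990 of 1231 UMIs in the airway cells and 79.7% ± 6.90 as the mean share, from 74.2% in mouse 2 through 77.5% in mouse 4 to 87.5% in mouse 3. No mouse reached for *Dynlrb2* the lowest share of any mouse for the other 7 genes, which was 96.9% for *Tmem212* in mouse 4.

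A few cells held most of each secretory gene. The 8 cells with the most *Scgb1a1* held as many of its deposited UMIs as all other cells together, or more, and a single cell of mouse 4 held 83770. For *Scgb3a1* and *Bpifa1* 2 cells were enough, and for *Scgb3a2* 6. At the same time 3291 kept cells (43.1%) had at least 1 *Scgb1a1* UMI, against 250 cells for *Scgb3a2*, 237 for *Dynlrb2*, 106 for *Scgb3a1* and 7 for *Bpifa1*. A cell with a *Scgb1a1* UMI was therefore an airway cell in 47 of 3291 cases. A ciliated-like cell of mouse 4 with 566 UMIs was the only airway cell without any.

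**Figure D1:**
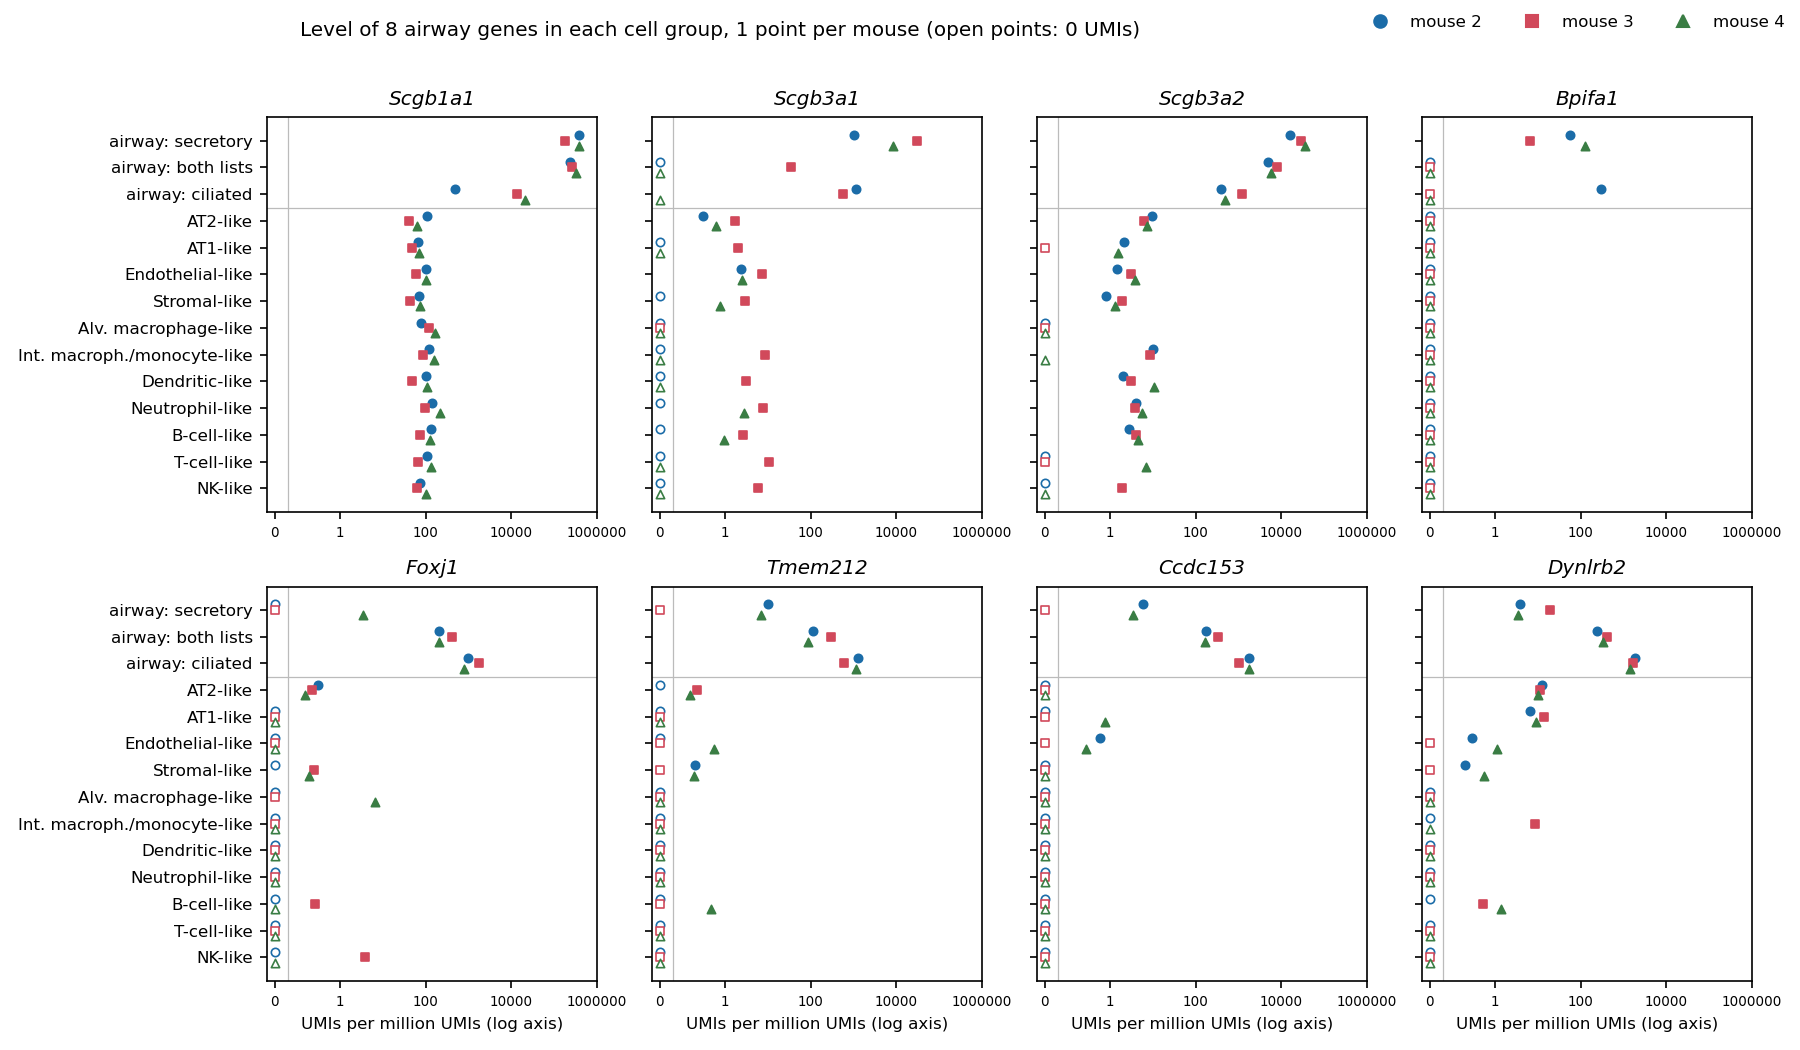
Level of each of the 8 genes (CPM, log axis with 0 at the left) in each cell group, with 1 point per mouse and open points for 0 UMIs. The groups above the gray line are the 3 sub-clusters of the airway cluster; in the 11 types below it (those with at least 10 cells in every mouse) *Scgb1a1* lay at 40.8 to 214 CPM, while *Dynlrb2* lay at 6.45 to 14.0 CPM in AT2-like and AT1-like cells and at 1.39 or less in the others, except for 1 UMI (8.64 CPM) in interstitial macrophage- or monocyte-like cells of mouse 3.

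In the airway cluster as a whole, the level of *Scgb1a1* was 293490 CPM in mouse 2, 170521 CPM in mouse 3 and 311371 CPM in mouse 4, which means that 1 gene made up 17.1% to 31.1% of the UMIs of these cells. *Scgb3a1* was at 626, 7744 and 2674 CPM and *Scgb3a2* at 10449, 11462 and 15115 CPM in mice 2, 3 and 4. Mouse 3 was lowest for *Scgb1a1* and highest for *Scgb3a1*. Its 4 kept secretory-like cells all belonged to the sub-cluster high in *Scgb3a1* that is described below. *Bpifa1* was at 55.8, 1.61 and 41.8 CPM. Of the ciliated genes, *Foxj1* was at 169, 683 and 201 CPM, *Tmem212* at 165, 314 and 171 CPM, *Ccdc153* at 232, 436 and 276 CPM and *Dynlrb2* at 272, 675 and 333 CPM. Mouse 3 was the highest for all 4 ciliated genes, and its airway cells included 5 ciliated-like cells of 13, against 4 of 14 in mouse 2 and 7 of 21 in mouse 4. In ciliated-like cells alone, described below, mouse 3 was highest only for *Foxj1* (1729 CPM, against 978 and 806 in mice 2 and 4). It was lowest for *Tmem212* (615 against 1277 and 1160.2) and *Ccdc153* (1011 against 1766 and 1762), and between the others for *Dynlrb2*. In cells with markers of both lists, mouse 3 was highest for all 4 genes. What set the order of the mice in the sums was not tested.

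The airway cluster was compared with alveolar type 2-like (AT2-like) cells, the surfactant-making epithelial cells of the alveoli, of which 1069 were kept. The airway cells were higher in every member that was tested. On sums per mouse, the quasi-likelihood test of edgeR, adjusted by Benjamini-Hochberg, gave a log2 difference of 12.03 (SE 0.50, adjusted p = 7.56e-13) for *Scgb1a1*, 12.16 (SE 0.82, adjusted p = 5.25e-10) for *Scgb3a1* and 10.79 (SE 0.29, adjusted p = 3.00e-15) for *Scgb3a2*. Among the ciliated genes the log2 difference was 10.39 (SE 0.57) for *Foxj1*, 10.54 (SE 0.32) for *Tmem212* and 5.35 (SE 0.21, adjusted p = 5.00e-13) for *Dynlrb2*, so that *Dynlrb2* had the smallest difference of the members tested. In every mouse the airway cells lay above the AT2-like cells of all 3 mice for these genes. *Ccdc153* and *Bpifa1* had 0 UMIs in the AT2-like cells. Pooled over mice and set against a floor of 3 UMIs over the group, *Ccdc153* was at least 1771-fold higher and *Bpifa1* at least 222-fold higher in the airway cells. *Bpifa1* did not pass the filter on low counts and was not tested.

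That count of 7 called members of 7 tested stands beside a background of 23% of 11276 genes called higher in the airway cells and 20.3% called lower (43.2% in either direction). Of the genes called, 53.1% were higher in the airway cells, and 39.1% when TMM scaling was left out, with every called member still higher. The count is a description, because a gene found mainly in the airway cells can pass the filter on low counts only through them. The cells were grouped by other genes, and genes that vary together with the grouping genes differ between clusters by construction. The level of the secreted and ciliated genes in the sum also mixes 3 kinds of airway cell, which were separated next.

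Within the airway cluster, sub-clustering without the members gave 3 groups that were named from a list of 10 secretory and a list of 10 ciliated markers. A secretory-like group had 18 cells (7, 4 and 7 in mice 2, 3 and 4), a ciliated-like group had 16 (4, 5 and 7), and a group of 14 (3, 4 and 7) held the markers of both lists. The secretory markers stood above the rest of the lung by a mean log2 difference of 4.73, 2.10 and 4.00 in the secretory-like, ciliated-like and both-list groups, and the ciliated markers by 0.04, 4.91 and 3.09. Median depth was 43894.5 UMIs in secretory-like cells, 19326.5 in ciliated-like cells and 72780.5 in both-list cells. Of the 48 cells, doublet scoring marked 1, a both-list cell, and marked cells were kept.

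The secretory genes differed cell by cell. In the 18 secretory-like cells *Scgb1a1* ran from 104 UMIs through a median of 16438.5 to 50984, and in the 16 ciliated-like cells from 0 through 10.5 to 2100. The groups overlap only through 3 ciliated-like cells that held 204, 1919 and 2100 *Scgb1a1* UMIs, and the other 13 ciliated-like cells held 28 or fewer. Summed per mouse, secretory-like cells were at 387386, 176503 and 375494 CPM and ciliated-like cells at 489, 13474 and 21174 CPM in mice 2, 3 and 4. The log2 difference was 5.92 (SE 0.76, edgeR quasi-likelihood, Benjamini-Hochberg adjusted p = 1.02e-06), and every secretory-like sum was above every ciliated-like sum.

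*Scgb3a2*, which lies at chr18:43764289-43767399 on the plus strand, differed between the groups in the same direction as *Scgb1a1*. It ran from 52 UMIs through a median of 678.5 to 4720 in secretory-like cells and was at 0 in 9 of 16 ciliated-like cells, with a highest value of 207. Per mouse the levels were 16359, 29742 and 36266 CPM in secretory-like and 399.9, 1200.4 and 483 CPM in ciliated-like cells, which do not overlap. The log2 difference was 6.36 (SE 0.43, edgeR quasi-likelihood, Benjamini-Hochberg adjusted p = 4.04e-11). Among the secretory-like sums the order of the mice differed, since mouse 2 was highest in *Scgb1a1* and lowest in *Scgb3a2*.

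*Scgb3a1* was found in fewer cells. It was at 0 in 7 of the 18 secretory-like cells, had a median of 22.5 UMIs and reached 3207 in a mouse 3 cell, in which it nearly matched the 3594 UMIs of *Scgb1a1*. In ciliated-like cells it was at 0 in 14 of 16, and the other 2 cells held 201 UMIs between them. Levels per mouse were 1015, 30139.6 and 8204 CPM in secretory-like cells and 1122, 574 and 0 CPM in ciliated-like cells. In mouse 2 the ciliated-like level was the higher of the pair, and it rested on 1 cell of 48760 UMIs. The secretory-like level of mouse 2 rested mainly on 1 cell too, of 77870 UMIs, which held 472 of the 516 *Scgb3a1* UMIs. The log2 difference over the mice was 5.42 (SE 0.88, edgeR quasi-likelihood, Benjamini-Hochberg adjusted p = 3.13e-05).

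*Bpifa1* did not separate the groups. It was held by 5 of 18 secretory-like cells and 1 of 16 ciliated-like cells, with 67 and 27 UMIs in all. The cells that held most were a secretory-like cell of mouse 2 with 27 UMIs, the same ciliated-like cell of mouse 2 with 27, and secretory-like cells of mouse 4 with 21 and 17. The log2 difference was 0.87 (SE 0.97, edgeR quasi-likelihood, Benjamini-Hochberg adjusted p = 0.572), and its sign turned to -0.34 without TMM scaling and to -0.56 without mouse 4.

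The ciliated genes separated the groups in the other direction. *Foxj1* was found in all 16 ciliated-like cells (1 to 102 UMIs, median 14) and as 1 UMI in 1 of 18 secretory-like cells. *Dynlrb2* was also found in all 16 ciliated-like cells (3 to 146 UMIs, median 31) and as 6 UMIs over 5 secretory-like cells. *Ccdc153* ran from 0 through 19 to 115 UMIs in ciliated-like cells, with 1 of 16 at 0, and came to 4 UMIs in 3 secretory-like cells. *Tmem212* ran from 0 through 14 to 88 UMIs, with 2 of 16 at 0, and came to 7 UMIs in 4 secretory-like cells. The 2 ciliated-like cells without *Tmem212* were shallow cells of mouse 4 with 566 and 1411 UMIs.

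Per mouse, *Foxj1* was at 978, 1729 and 806 CPM in ciliated-like cells and at 0, 0 and 3.37 CPM in secretory-like cells of mice 2, 3 and 4. *Dynlrb2* was at 1911, 1700.1 and 1407 CPM against 3.93, 19.2 and 3.37 CPM. For both genes the ciliated-like sums were higher in every mouse and did not overlap the secretory-like sums, as was also the case for *Ccdc153* (1766, 1011 and 1762 CPM against 5.90, 0 and 3.37) and *Tmem212* (1277, 615 and 1160.2 CPM against 9.84, 0 and 6.74). Secretory-like minus ciliated-like, the edgeR quasi-likelihood log2 difference was -6.91 (SE 0.36, Benjamini-Hochberg adjusted p = 4.75e-13) for *Dynlrb2*, -5.90 (SE 0.56, adjusted p = 2.65e-08) for *Tmem212* and -7.29 (SE 0.46, adjusted p = 1.40e-10) for *Ccdc153*. *Foxj1*, with its single secretory-like UMI, had a pooled ratio of 1248 in favor of the ciliated-like cells, with a counting interval of 223 to 49399.

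Across all 9382 genes tested in this comparison, 12.2% were called higher in secretory-like and 14.4% in ciliated-like cells (26.6% in either direction). Of the 8 members, 3 were called higher in secretory-like cells, 4 in ciliated-like cells and 1 was not called. The comparison was run on sub-clusters with at least 3 cells in a mouse. Both kinds of cell were separated by other secretory and ciliated genes, and genes that vary with those differ by construction. A member nearly absent outside the airway cells can pass the filter on low counts only through the cells that hold it. The calls and adjusted p-values of the members in this comparison are therefore descriptions. Scaling by library size alone shifted the median of all genes by -1.09 on the log2 scale and left each of these 7 directions as it was, but the share of called genes that were higher in secretory-like cells went from 45.8% to 8.31%. Typing each of the kept cells by its own marker UMIs instead gave 39 secretory-like and 9 ciliated-like cells, with no both-list group. These were not the same cells as in the airway cluster. A both-list cell of mouse 2, with 4148 AT2 against 2100 secretory marker UMIs, was not typed as an airway cell. Ciliated-like sums then came from mice 2 and 3 only, with 3 and 4 cells. The log2 difference there fell to -0.69 (adjusted p = 0.426) for *Tmem212* and -1.20 (adjusted p = 0.108) for *Ccdc153*, both from edgeR. That rule compares raw UMIs of the lists. A ciliated-like cell of mouse 2, with all 10 ciliated markers detected, held 428 secretory against 233 ciliated marker UMIs.

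**Figure D2:**
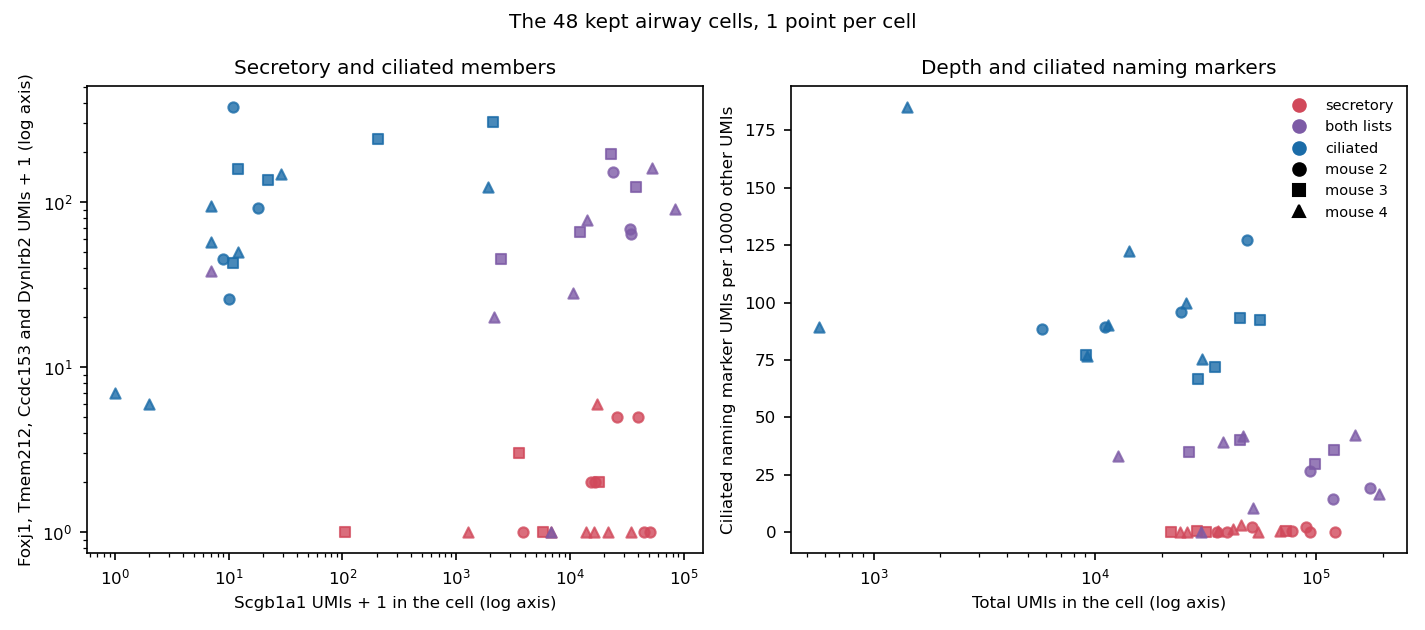
Each point is 1 of the 48 kept airway cells, colored by sub-cluster and shaped by mouse, with *Scgb1a1* UMIs against summed *Foxj1*, *Tmem212*, *Ccdc153* and *Dynlrb2* UMIs at the left (UMIs + 1, both axes log) and total UMIs (log axis) against ciliated marker UMIs relative to the cell's other UMIs at the right. Most both-list cells are high on both axes at the left, and they reach 191992 UMIs, while the secretory-like cells reach 121383 and the ciliated-like cells 55504.

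The 14 both-list cells carried the secretory and the ciliated genes together. *Scgb1a1* ran from 6 UMIs through a median of 18486 to 83770 and *Scgb3a2* from 0 through 295 to 1323, while *Foxj1* was found in 13 of 14 (median 14.5, highest 68), *Tmem212* in 13 (median 12), *Ccdc153* in 12 (median 14.5) and *Dynlrb2* in 13 (median 20, highest 62). *Scgb3a1* was at 0 in 11 of the 14 cells and at most 8 in the others, and *Bpifa1* was at 0 in all 14. Their ciliated genes were, in CPM, between those of the other groups, with *Foxj1* at 204, 423 and 206 CPM in mice 2, 3 and 4. Their *Scgb1a1* level of 238470, 261266 and 326741 CPM overlapped that of the secretory-like cells.

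Both-list cells were deep. The 7 deepest of them held from 93865 to 191992 UMIs. AT2 markers came to 2324 and 4148 UMIs in 2 both-list cells of mouse 2 and to 2695 in the marked cell of mouse 4, against a median of 125 in the group and 57 or fewer in every ciliated-like cell. Secretory-like cells had a median of 75 AT2 marker UMIs and reached 4042, so a high value was not particular to the both-list cells. Whether these droplets held 1 cell or more was not tested. Of the 14 cells, 2 did not hold genes of both kinds: a mouse 4 cell with 6838 *Scgb1a1* UMIs had no UMI of any ciliated member, and a mouse 4 cell of 12669 UMIs had 6 *Scgb1a1* UMIs beside 13 of *Foxj1* and 19 of *Dynlrb2*.

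Markers of rarer airway cells were looked up in the same cells, from 12 genes of basal, neuroendocrine, ionocyte and tuft cells, of which 2 (*Krt14* and *Foxi1*, named here after their values were seen) had no UMI in any cell. *Resp18*, a gene of neuroendocrine cells, came to 53 UMIs in the airway cluster, all in 2 both-list cells of mouse 4. One was the marked cell of 51696 UMIs, with 40 *Resp18* and 27 *Calca* UMIs, 2141 *Scgb1a1* UMIs and 3 *Foxj1* UMIs. The other was the cell without any ciliated member UMI, with 13 *Resp18* UMIs and 0 of *Calca*. Each of the 2 cells held 1 UMI of *Chga*, from the same list. A secretory-like cell of mouse 2 with 77870 UMIs held 21 UMIs of *Krt5* and 13 of *Trp63*, genes of basal cells. It held 1 UMI of *Ngfr* and 0 of *Krt14*, from the same list, together with 472 *Scgb3a1*, 27 *Bpifa1* and 4042 AT2 marker UMIs. *Trp63* was not particular to this cell, since the secretory-like cells held 24 of its UMIs in all. None of these 12 genes had enough counts to be tested.

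Secretory cells were uneven in *Scgb3a1*, and they parted into 2 sub-clusters when the filter on cells was not used. Among the 23 secretory-like cells then found, 1 sub-cluster of 8 (1, 4 and 3 in mice 2, 3 and 4) held 215 to 3207 *Scgb3a1* UMIs with a median of 632, and the other 15 held 0 to 41 with a median of 0. *Scgb1a1* was lower in the 8, with 104 to 18006 UMIs (median 4850.5, 16.5% of their UMIs) against 1703 to 50984 (median 17181, 40.6%). *Scgb3a2* overlapped, at 133 to 4720 UMIs (median 564) against 52 to 3587 (median 596). *Bpifa1* was found in 4 of the 8 and in 1 of the 15.

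Some other secreted genes that were not among the genes used for clustering were high in the same 8 cells. *Tff2*, a trefoil peptide of mucous cells, ran from 25 through 221.5 to 563 UMIs against 0 to 46 in the other 15 cells. *Muc5b*, the main secreted airway mucin, ran from 18 through 96.5 to 213 UMIs against 0 to 51. *Bpifb1*, a secreted relative of *Bpifa1*, ran from 18 through 117.5 to 270 UMIs against 0 to 25, and *Reg3g*, an antimicrobial lectin, from 0 through 52 to 1027 against 0 to 6. Not all secreted genes went this way. *Sftpd* had a lower median in the 8 cells, 11 UMIs (1 to 180) against 43 (13 to 140). *Lypd2* had a higher median (104 against 17), but its range of 26 to 233 overlapped 1 to 224. Genes that had been used to place or name the cells also differed, with *Hp* at a median of 10 against 154 UMIs, *Cckar* at 2 against 11 and *Chad* at 25 against 3. These genes and this sub-cluster were singled out after their values were seen, so the differences are given without a test. The 8 cells came to 1 in mouse 2, which was also lowest in *Scgb3a1* in the airway sum. That 1 cell was the cell of 77870 UMIs that also held *Krt5*, *Trp63* and 4042 AT2 marker UMIs. In mouse 3 all 4 secretory-like cells that passed the filter on cells were among the 8. Its 3 cells of the other sub-cluster, with 6071, 9995 and 18073 *Scgb1a1* UMIs and no *Scgb3a1* UMI, were left out by that filter. The sums of mouse 3 therefore hold only 1 of the 2 kinds of secretory-like cell.

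**Figure D3:**
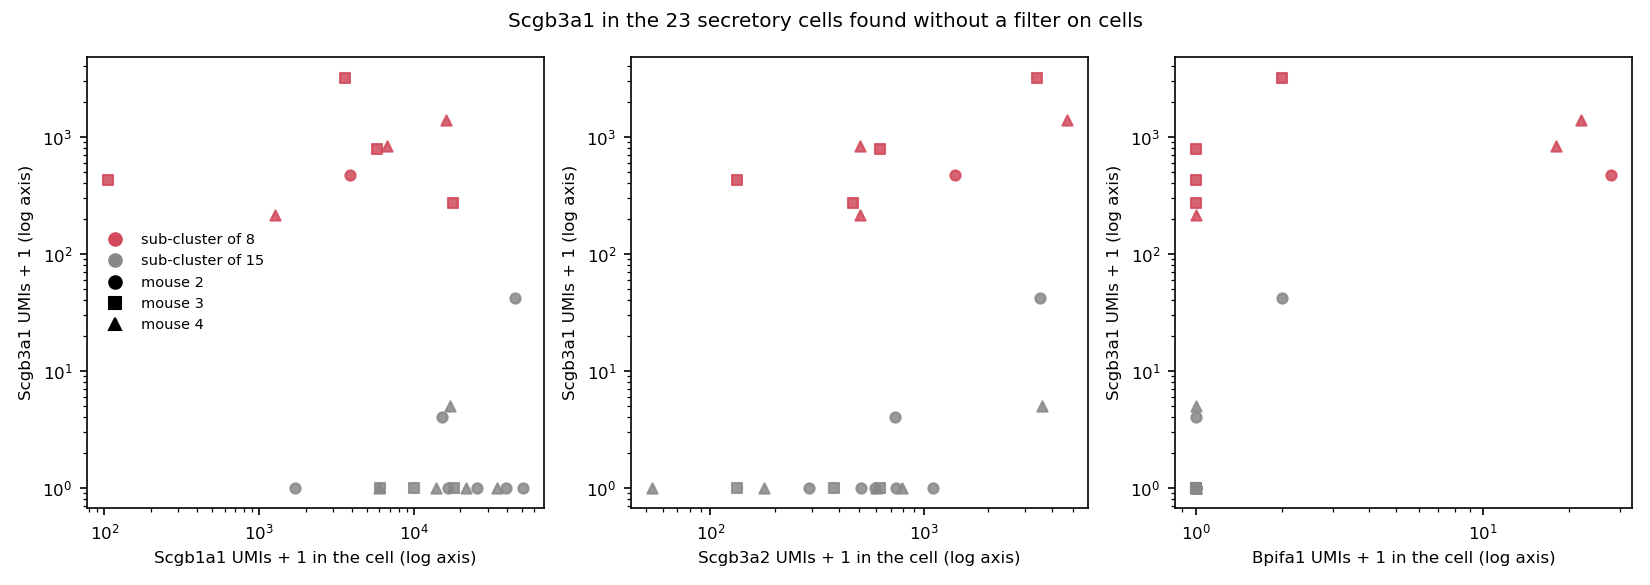
*Scgb3a1* UMIs + 1 against *Scgb1a1*, *Scgb3a2* and *Bpifa1* UMIs + 1 (all axes log) in the 23 secretory-like cells found without a filter on cells, with 1 point per cell. The 8 cells of 1 sub-cluster lie at 215 or more *Scgb3a1* UMIs, above all 15 cells of the other, which reach 41.

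For correlations over single cells, CPM was taken over each cell's UMIs other than those of the members. Over 46 airway cells with at least 5000 such UMIs, the correlation of log2(CPM + 10) between *Scgb1a1* and *Scgb3a2* was 0.886 (Pearson's r). That between *Scgb1a1* and *Scgb3a1* was 0.133 and that between *Scgb1a1* and *Foxj1* was -0.635. These are descriptions over cells that share 3 libraries and differ in depth. Over 3049 genes in the same cells, the gene most like *Scgb1a1* was *Gsta3* (r = 0.946), a glutathione transferase. *Tff2* (0.943) and *Muc5b* (0.907) came first for *Scgb3a1*, *Epas1* (0.919) for *Scgb3a2*, *Chil4* (0.665) for *Bpifa1*, *1110017D15Rik* (0.971) for *Foxj1*, *Dnah6* (0.941) for *Tmem212*, *Ccdc78* (0.967) for *Ccdc153* and *Rsph1* (0.969) for *Dynlrb2*. *Foxj1* and *Dynlrb2* were each among the 3 genes most like the other (0.962).

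Over the 38 sums of 13 named types and mice, in contrast, the airway cluster stood against all other types, and secretory and ciliated genes could not be separated. The genes most like *Scgb1a1* there were *Cfap52*, *Lrrc26* and *Tctex1d4* (r = 0.984, 0.984 and 0.983), of which *Cfap52* is a cilium gene. *Scgb3a1* was closest to *Ccdc40*, *Muc5b* and *Reg3g* (all 0.992), *Scgb3a2* to *Cfap52*, *Prr29* and *Lypd2* (0.991 to 0.992) and *Bpifa1* to *Col6a5* (0.915), *Cldn10* and *Lrrc26*. *Foxj1* was closest to *Bpifb1*, *Drc7* and *Dnah3* (0.995), *Tmem212* to *Stk33*, *Gm867* and *Cfap44*, *Ccdc153* to *Stk33*, *Dnah9* and *Cfap52* (all above 0.999) and *Dynlrb2* to *Mycbpap*, *Capsl* and *Ddo* (0.981 to 0.984). All 38 sums come from the same 3 libraries, and the 3 airway sums lie far from all the others.

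Other genes of the same programs were read from 5 lists. Among 17 axonemal dynein genes and their assembly factors, all 17 were called higher in ciliated-like than in AT2-like cells (median log2 difference 9.14, against -0.16 over all 9382 genes), and among 23 genes of axoneme structure all 23 were (median 10.5). In that comparison 21.1% of all genes were called higher and 42.6% in either direction. The list counts are descriptions, because the ciliated-like group was named by other ciliated genes. A gene nearly absent from the other types can also pass the filter on low counts only through cells that hold ciliated genes. Of the genes called, 49.6% were higher in ciliated-like cells, and 74.1% without TMM scaling, which shifted the median of all genes by 0.55. *Dnah5* and *Dnah12*, heavy chains of the axonemal motors, were at 1199.7, 494 and 494 CPM and at 844, 557 and 634 CPM in ciliated-like cells of mice 2, 3 and 4, and each had 1 UMI in all AT2-like cells. *Tubb4b* and *Tuba1a*, tubulins that other cells also use, were at a mean of 2838 ± 1465 and 2335 ± 1212 CPM in ciliated-like cells (mean ± SD, n = 3 mice). AT2-like cells held 172 CPM of *Tubb4b* and 15.1 CPM of *Tuba1a*. Of 10 ciliogenesis regulators 5 could be tested, and 5 were called higher. *Deup1*, which builds the many basal bodies, was at 156, 787 and 32.2 CPM and *Myb*, a transcription factor that acts before *Foxj1*, at 199.96, 437 and 247 CPM in ciliated-like cells. *Myb* was also found in B-cell-like cells (367 UMIs, 47.4 CPM), in which it acts in blood cell development.

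The members themselves followed the same comparison. In ciliated-like against AT2-like cells the edgeR log2 difference was 11.50 (SE 0.40) for *Foxj1*, 11.84 (SE 0.50) for *Tmem212* and 6.67 (SE 0.21) for *Dynlrb2*. *Ccdc153*, at 0 UMIs in AT2-like cells, was at least 8292-fold higher by the pooled counts. The secretory genes were called as well, with log2 differences of 6.79 (SE 0.79) for *Scgb1a1*, 8.81 (SE 1.14) for *Scgb3a1* and 5.96 (SE 0.43) for *Scgb3a2*. They rest on few cells, since 3 of 16 ciliated-like cells held 204, 1919 and 2100 of the 4361 *Scgb1a1* UMIs, and 2 cells held all 201 of *Scgb3a1*. *Bpifa1* was called by edgeR (adjusted p = 0.000123, quasi-likelihood, Benjamini-Hochberg) on the 27 UMIs of 1 cell, and DESeq2 gave an adjusted p of 0.0644. Under a stricter filter on cells (500 or more genes, mitochondrial UMIs up to 10%), the cluster found took in AT1-like cells and none of the 7 members tested was called in this comparison.

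In the whole airway cluster against AT2-like cells, secreted proteins separated less cleanly than oxidative enzymes did. Of 20 secreted airway proteins 16 could be tested, and 11 were called higher and 5 lower in the airway cluster than in AT2-like cells (median log2 difference 3.76, against -0.03 over all 11276 genes, of which 23% were called higher and 20.3% lower). *Wfdc2*, a secreted protease inhibitor, was at 6111, 8471 and 6262 CPM in secretory-like cells of mice 2, 3 and 4, and AT2-like cells also held 3048 CPM. *Tff2* was at 476, 5579 and 2957 CPM in secretory-like cells and at 2 UMIs in all AT2-like cells. Like *Scgb3a1*, it was lowest in mouse 2 and highest in mouse 3. Of 13 oxidative enzymes 12 could be tested and 12 were called higher in the airway cluster (median 6.75), among them *Gsto1* (561, 2905 and 1494 CPM in secretory-like cells) and *Por* (639, 693 and 728 CPM), the reductase that feeds electrons to cytochromes P450. Between secretory-like and ciliated-like cells, 12 secreted proteins were called higher, 1 lower and 3 neither way, and 6 enzymes were higher, 2 lower and 4 neither way, where 12.2% of all genes were called higher and 14.4% lower. All 17 dynein and 23 axoneme genes, and 5 of 5 ciliogenesis regulators tested, were lower. The groups were named by other secretory and ciliated genes, so these counts too are descriptions.

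The second question was what is left of the members outside the airway cluster. There, 3244 of 7594 cells (42.7%) had at least 1 *Scgb1a1* UMI, but only 427 had more than 2 and 28 had more than 10. Above 50 UMIs there were 5 cells: 3 unnamed cells of 3674, 1704 and 567 UMIs in which *Scgb1a1* was 1940, 723 and 252 UMIs, an unnamed mouse 4 cell with 168 of 621 UMIs, and an AT2-like cell of mouse 2 with 361 of 59105 UMIs. In the first 4 of these cells *Scgb1a1* made up from 27.1% to 52.8% of all UMIs, and *Scgb3a2* came to 25, 65, 6 and 27 UMIs, while none of the 4 ciliated members had a UMI. These 4 were placed with other small clusters and are not counted among the airway cells.

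The *Scgb1a1* background was read in B-cell-like cells, which should not make it. The 1784 B-cell-like cells held 800 UMIs in all, at 0.603, 0.316 and 0.560 UMIs per cell in mice 2, 3 and 4 (mean 0.493 ± 0.155, n = 3 mice). In CPM this was 133, 74.1 and 130. Mouse 3, in which *Scgb1a1* was lowest as a share of the kept library (0.514%, against 1.31% in mouse 2 and 1.23% in mouse 4), also had the lowest background. With 3 mice no relation between the values was tested. The B-cell-like cells of above-median depth held 0.688, 0.315 and 0.622 UMIs per cell and the others 0.518, 0.316 and 0.498.

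Per cell, endothelial-, stromal-, AT1- and AT2-like cells held more than the B-cell-like cells of the same mouse, and neutrophil-like cells held less. Endothelial-like cells (the ECs that line vessels) had 0.964, 0.652 and 1.01 *Scgb1a1* UMIs per cell in mice 2, 3 and 4, stromal-like cells 0.849, 0.561 and 0.896, and neutrophil-like cells 0.333, 0.221 and 0.517. AT1-like cells, the flat cells of the gas exchange surface, had 1.17, 0.727 and 1.15. AT2-like cells had 1.86, 0.694 and 1.02, and the value of mouse 2 included the single cell with 361 UMIs. Mouse 3 was lowest in each of these types. The order of the types differed between the scales: neutrophil-like cells, at a median of 2127 UMIs, were low per cell and had 94.4 to 214 CPM, and AT2-like cells, at a median of 16250 UMIs, had 40.8 to 109 CPM. Ordered by mean CPM, none of the 11 types outside the airway cluster stood apart from its neighbor, since the ranges over mice overlapped at each step.

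The share of cells with a *Scgb1a1* UMI changed its order with depth. As counted, it was 33.4% of B-cell-like cells (median 3960.5 UMIs), 54.3% of AT2-like cells (16250), 50.9% of endothelial-like cells (7590) and 27.3% of neutrophil-like cells (2127). When each cell was thinned to 1000 UMIs, it was 10.3%, 5.70%, 10.1% and 12.7%, after 5, 2, 72 and 53 cells under 1000 UMIs were left out. AT2-like cells were the highest of these types as counted and the lowest after thinning.

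**Figure D4:**
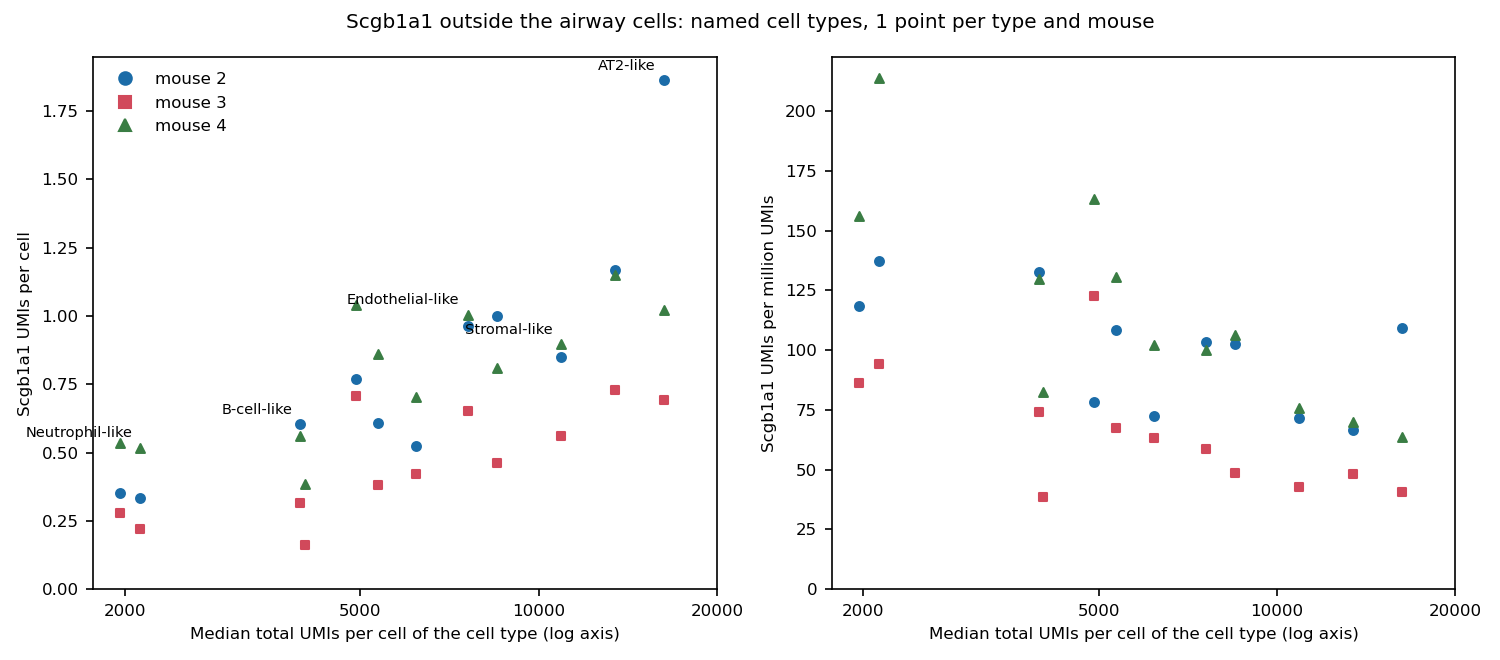
*Scgb1a1* in each named type outside the airway cluster, with 1 point per type and mouse, against the median total UMIs per cell of the type (log axis), as UMIs per cell at the left and as CPM at the right. Mouse 3 lies below mice 2 and 4 in most types, and AT2-like cells of mouse 2, with 1.86 UMIs per cell, lie highest at the left.

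In the AT2-like against B-cell-like comparison, *Scgb1a1* gave a log2 difference of -0.48 (SE 0.33, edgeR quasi-likelihood, Benjamini-Hochberg adjusted p = 0.188), from 109, 40.8 and 63.6 CPM in AT2-like and 133, 74.1 and 130 CPM in B-cell-like cells. The AT2-like value was lower in 3 of 3 mice, but the ranges overlap. With mouse as a block the log2 difference was -0.55 (adjusted p = 0.00882), and without the 1 AT2-like cell of 361 UMIs it was -0.91 (adjusted p = 0.00525). In this comparison 76.3% of all 11276 genes were called, 37% higher and 39.3% lower in AT2-like cells, so a call by itself sets no member apart.

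The other secretoglobins outside the airway cluster can be read against *Scgb1a1*. In the airway cells *Scgb3a2* was 4.39% of the *Scgb3a2* and *Scgb1a1* UMIs together (exact binomial 95% interval 4.34% to 4.44%). It was 3.61% in B-cell-like cells (2.45% to 5.12%), 3.01% in endothelial-like (2.00% to 4.35%) and 1.98% in stromal-like cells (1.19% to 3.07%). The stromal-like interval lay below that of the airway cells. So did that of all kept cells outside the airway cluster and the AT2-like type, at 3.29% (2.91% to 3.72%). The last value includes 3083 *Scgb1a1* and 123 *Scgb3a2* UMIs of the 4 unnamed cells with the most *Scgb1a1*, and was 2.91% (2.44% to 3.44%) without them. In AT2-like cells it was 9.61% (8.16% to 11.2%), and 9.90% (8.18% to 11.8%) without the cell that held most *Scgb1a1*. By mouse the AT2-like share was 8.16%, 13.5% and 10.3% in mice 2, 3 and 4, above the airway share of the same mouse (3.44%, 6.30% and 4.63%) in 3 of 3. Dendritic-like cells were at 5.67% (2.48% to 10.9%), on 8 *Scgb3a2* UMIs, an interval that overlaps that of the AT2-like cells.

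*Scgb3a2* came to 142 UMIs in 83 of 1069 AT2-like cells, most of which (66) had 1 UMI, and to 30 UMIs in 28 of 1784 B-cell-like cells. The levels were 9.72, 6.36 and 7.32 CPM in AT2-like and 2.76, 3.98 and 4.62 CPM in B-cell-like cells, and did not overlap. The log2 difference was 1.17 (SE 0.31, edgeR quasi-likelihood, Benjamini-Hochberg adjusted p = 0.00220). It rests in part on 1 AT2-like cell of mouse 2 with 35 *Scgb3a2* UMIs, the same that held 361 of *Scgb1a1*: without it the log2 difference was 0.79 (adjusted p = 0.0284), and without mouse 2 it was 0.82 (adjusted p = 0.0756). The share of cells with a UMI at 1000 UMIs per cell was 0.586% in AT2-like and 0.536% in B-cell-like cells, so this readout held no clear difference. Among all types the AT2-like CPM did not stand apart from the next ones. Dendritic-like cells ran from 2.01 to 10.4 CPM over the mice, on 8 UMIs. Interstitial macrophage- or monocyte-like cells ran from 0 to 9.86 CPM, on 2 UMIs.

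*Scgb3a1* was near its floor in alveolar cells, with 14 UMIs in AT2-like and 12 in B-cell-like cells (0.299, 1.75 and 0.610 CPM against 0, 2.66 and 0.923 CPM). The log2 difference was -0.74 (SE 1.43, edgeR quasi-likelihood, Benjamini-Hochberg adjusted p = 0.648), and no difference was detectable at this depth. Endothelial-like cells held 36 UMIs in 28 of 960 cells (2.34, 7.41 and 2.46 CPM). There *Scgb3a1* was 3.98% of the *Scgb3a1* and *Scgb1a1* UMIs together (2.80% to 5.46%), against 1.14% in the airway cells. It was the higher in 3 of 3 mice, at 2.22%, 11.2% and 2.40% against 0.213%, 4.34% and 0.851% in mice 2, 3 and 4. In AT2-like cells it was 1.04% (0.569% to 1.74%), in B-cell-like cells 1.48% and in stromal-like cells 1.67%. The endothelial-like share was not particular to that type. T-cell-like, NK-like and neutrophil-like cells were at 4.76%, 3.53% and 3.07%, on only 4, 3 and 5 *Scgb3a1* UMIs. The value was highest in mouse 3 in AT2-like, B-cell-like and endothelial-like cells alike, as it was in the airway sum. *Bpifa1* had no UMI in 1784 B-cell-like or 1069 AT2-like cells, which allows a share of cells with a UMI of up to 0.168% and 0.281% (3 cells of the total).

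The ciliated genes left almost no background in B-cell-like cells, and in AT2-like cells only *Dynlrb2* came to more than a few UMIs. In B-cell-like cells there was 1 UMI each of *Foxj1* and *Tmem212*, none of *Ccdc153* and 5 of *Dynlrb2*. In AT2-like cells there were 4 of *Foxj1*, 2 of *Tmem212* and none of *Ccdc153*, but 201 of *Dynlrb2*. These lay in 171 of 1069 cells (16%), 142 of them with 1 UMI and none with more than 3, and gave levels of 12.7, 10.97 and 10.1 CPM (mice 2, 3 and 4), where the B-cell-like levels were 0, 0.531 and 1.39 CPM. The 3 AT2-like values lay close together and above all B-cell-like values. The log2 difference was 4.17 (SE 0.63, edgeR quasi-likelihood, Benjamini-Hochberg adjusted p = 6.63e-06).

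AT1-like cells held *Dynlrb2* too, with 25 UMIs in 17 of 166 cells and 6.45, 14.0 and 9.10 CPM, which overlaps the AT2-like range. Pooled, this was 14.1 times the B-cell-like level (counting interval 5.29 to 47.1). Endothelial-like and stromal-like cells held 5 and 4 UMIs, and dendritic-like, NK-like, T-cell-like and neutrophil-like cells none. After thinning to 1000 UMIs the share of cells with a *Dynlrb2* UMI was 1.07% in AT2-like, 1.28% in AT1-like and 0.0778% in B-cell-like cells.

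In ciliated-like cells *Dynlrb2* came with the other ciliated genes, at 599 UMIs beside 464 of *Foxj1*, 330 of *Tmem212* and 499 of *Ccdc153*. In AT2-like cells the 201 UMIs came with 6 UMIs of the other 3 genes in all, 2 of them in the 171 cells that held *Dynlrb2*. Those cells had 1.12 UMIs of the 10 ciliated naming markers per cell and the other AT2-like cells 0.786. These are raw UMIs that were not adjusted for depth, so a relation between the genes cannot be read from them. The doublet scoring marked 7 of the 171, and 192 UMIs remained without the marked AT2-like cells. The level of *Dynlrb2* in AT2-like cells was still far under that in the airway cluster, which was 34.8 times as high by pooled counts (29.9 to 40.7). That level came almost wholly from the ciliated-like and both-list cells. Secretory-like cells held 6 *Dynlrb2* UMIs, at 3.93, 19.2 and 3.37 CPM in mice 2, 3 and 4. This range overlaps the 10.1 to 12.7 CPM of the AT2-like cells.

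Most cilium genes of the pathway lists were near their floor in AT2-like and B-cell-like cells. Of 17 dynein genes 14, and of 23 axoneme genes 15, had under 10 UMIs in each of these types, so a call could hardly be made for them. The counts stand beside 37% of all genes called higher and 39.3% called lower in AT2-like cells. Of 16 dynein genes tested, none was higher, 1 was lower and 15 were not called, and of 23 axoneme genes 2 were higher, 3 lower and 18 not called. Among the secreted proteins 9 of 16 were called higher and 7 were not called, and of 12 oxidative enzymes 4 were higher and 2 lower. Of 6 ciliogenesis regulators 2 were higher and 2 lower. The enzymes and the regulators called higher were thus close to the share over all genes.

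The filter on cells left out a larger share of the airway cells than of all cells. Without it, 87 airway cells were found (26, 23 and 38 in mice 2, 3 and 4), which included all 48 of the kept cells. The filter had left out 39 of the 87 (44.8%), against 2002 of all 9644 cells (20.8%). The naming rule called 48 of the 87 ciliated-like, but 21 of these formed a shallow sub-cluster (median 3091 UMIs) in which both marker lists stood about equally high (log2 difference from the rest of the lung 2.25 for the secretory and 2.52 for the ciliated list), and 4 of the 21 had no UMI of a ciliated marker. That name is therefore uncertain. The filter left out 20 of these 21 cells. Of the other 27 ciliated-like cells it left out 12 (44.4%), of 23 secretory-like cells 5 (21.7%) and of 16 both-list cells 2 (12.5%). The cells left out had 20.5% to 79.0% mitochondrial UMIs with a median of 39.6%, at a median depth of 5798 UMIs, against a median of 11.9% in the kept airway cells. Whether the left-out cells were damaged or rich in mitochondria was not tested.

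**Figure D5:**
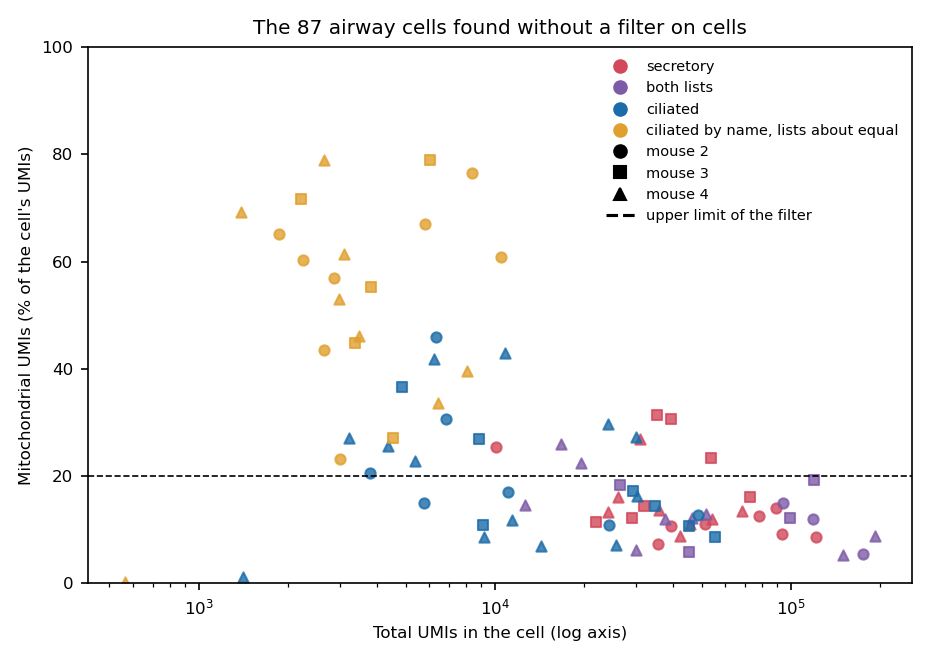
Total UMIs (log axis) against the percent of mitochondrial UMIs in the 87 airway cells found without a filter on cells, with 1 point per cell, colored by sub-cluster and shaped by mouse. The shallow sub-cluster of 21 cells, in which both marker lists are about equal, has a color of its own, and 20 of its cells were left out, against 12 of the other 27 ciliated-like, 5 of 23 secretory-like and 2 of 16 both-list cells. The dashed line marks 20%.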

How the data were processed

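Lungs of 3 mice were dissociated and each was run as 1 Chromium Single Cell 3′ v3 library. The counts deposited by the authors are raw UMIs per gene and cell for droplets kept as cells, with no normalization. The submitters' processing notes name Cell Ranger 3.0.2 and genome build mm10, and the annotation and the use of strand are not given in the sources used here. The series' design text counts 5677 cells, the tables hold 9644, and the filter behind the smaller number is not given in the sources used here. The members, lists and tests were chosen with earlier results of these data known.

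Cells were kept when 200 or more genes were detected and mitochondrial UMIs did not exceed 20%. They were clustered with Seurat 5.3.0 and sctransform 0.4.2 (3000 variable genes without the 8 members and 95 pathway genes, 30 principal components, resolution 0.8). A cluster was named where at least 3 markers of a list were detected and their mean log2 level was at least 1 above all other cells, unless more markers of another type were among its 10 leading genes or it combined low UMI counts with no own marker among them. The airway cluster was clustered again (2000 variable genes, 5 components, 10 neighbors, resolution 0.8) and its parts were named from 10 secretory and 10 ciliated markers. Doublets were scored with scrublet in scanpy 1.11.5, whose automatic threshold marked 0.032% to 0.297% of a library and so had not worked. The highest scores were marked instead, at 0.8% per 1000 cells (74, 79 and 97 cells), and were kept. Thinning gives the expected share of cells with a UMI after drawing 1000 UMIs from each.

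UMIs were summed per mouse and type. The sums were compared with the quasi-likelihood test of edgeR 4.0.16 (R 4.3.3, TMM, filterByExpr, Benjamini-Hochberg adjustment over all genes tested, threshold 0.05), and with DESeq2 1.42.0 as an alternative. The steps were tested on simulated data. Types needed at least 10 cells in a mouse. No ciliated-like type had them, so both comparisons with ciliated-like cells were fitted on sub-clusters with at least 3 cells in a mouse, a change made after seeing the data. The airway sums of the planned comparison therefore hold ciliated-like cells too. A member's value is printed only where the groups compared held at least 10 of its UMIs. Sums of the same animal pair the groups, and their deviations from the type means correlated from -0.0558 to 0.301 over 18 pairs of types. Ratios of pooled UMIs carry exact Poisson intervals at 95%, and shares exact binomial ones. Besides the members, the genes named were, in each pathway list, the 2 with the highest CPM in their airway type, and for each member the 3 genes most like it over the type sums, by Pearson's r of log2(CPM + 10) among genes with at least 100 UMIs. The likeness over single cells, the *Scgb3a2* share without the 4 unnamed cells, the separate account of the shallow sub-cluster of 21 cells, the sub-cluster high in *Scgb3a1* and the genes named with it were added after seeing the data. Values of 1 marker gene of the rarer airway cells are not reported here.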

Additional observations from a re-analysis of the deposited data

Results flagged for a closer look

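The airway cells that the filter on cells left out entered none of the comparisons as reported, only their repeat without that filter, and 5 of them entered the description of *Scgb3a1* in secretory-like cells. They held member UMIs far above the level in the other cells left out, which serve here as the background. In the 39 airway cells left out there were 50851 *Scgb1a1* UMIs, found in 36 of them. The other 1963 cells left out held 2022, or 1.03 per cell. *Scgb3a2* came to 2491 UMIs in 23 of the 39 cells against 102 UMIs in the others, and *Scgb3a1* to 160 against 20.

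The ciliated genes were high among the 39 cells too. *Dynlrb2* came to 165 UMIs against 9 in the other 1963, *Ccdc153* to 157 against 4, *Foxj1* to 108 against 5 and *Tmem212* to 86 against 0. They lay mostly in other cells than *Scgb1a1* did. The 10 cells with at least 100 *Scgb1a1* UMIs held 50567 of its UMIs and 54 of the 516 UMIs of the 4 ciliated genes, and the other 29 held 284 and 462. At least 3 ciliated naming markers were detected in 29 of the 39 cells.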

How the results depend on the processing

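Of 419 member tests under other settings, 401 had the same sign and the same call, 9 lost their call, 2 gained one and 7 changed sign. The share of airway cells among kept cells, 0.626%, was 0.895% without a filter on cells, 0.971% under a stricter filter of 500 genes and 10% mitochondrial UMIs (52 cells, of which 38 were AT1-like before and 14 were airway cells), 1.26% when members could be variable genes (98 cells, 47 of them from the small cluster of low UMI counts) and 0.446% without the both-list cells, a setting added after seeing the data. The share of *Scgb1a1* UMIs in airway cells, 98.8%, was 97.0% under the stricter filter, 94.9% when cells were typed by their own marker UMIs and 97.0% without the both-list cells. The *Scgb1a1* background of 0.493 UMIs per cell was 0.874 in endothelial-like cells, and 0.129 and 0.229 when B-cell-like cells were thinned to 1000 and 2000 UMIs.

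Without 1 mouse in turn these values ran from 0.543% to 0.689%, from 98.7% to 99.0% and from 0.438 to 0.581 UMIs per cell, and the genes called numbered 3652 to 4270 for airway against AT2-like (4876 with all mice), 7716 to 8222 for AT2-like against B-cell-like (8602), 3076 to 3563 for ciliated-like against AT2-like (3996) and 1711 to 1893 for secretory-like against ciliated-like cells (2491). With mouse as a replicate block these counts were 4895, 8632, 3947 and 2376, and the block changed the call of no member other than *Scgb1a1* in AT2-like against B-cell-like cells. The stricter filter gave 3115 and 732 calls for airway and for ciliated-like against AT2-like cells and left no secretory-like sums to compare with ciliated-like cells, and scaling without TMM gave 4235 for secretory-like against ciliated-like cells. That scaling shifted the median of all genes by -0.19 and -0.14 in the first 2 comparisons.

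Signs changed only for members with few UMIs or under the stricter filter. In ciliated-like against AT2-like cells that filter gave -3.51 for *Scgb3a1*, -6.46 for *Scgb3a2* and -0.90 for *Tmem212* (log2, adjusted p = 0.663 to 0.983, edgeR quasi-likelihood). *Scgb3a1* in AT2-like against B-cell-like cells ran from -0.75 to 0.14 without 1 mouse in turn, the latter without mouse 3. *Bpifa1* in secretory-like against ciliated-like cells was -0.34 without TMM, from -0.56 (without mouse 4) to 0.51 (without mouse 3) without 1 mouse in turn, and -1.99 with cells typed by their own markers. The last setting had ciliated-like sums from mice 2 and 3 only. The causes of these changes were not tested. With 13 to 21 airway cells per mouse, a share of cells is known no better than its binomial interval, and sub-clusters of 3 to 7 cells per mouse let 1 cell set a level.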

Other observations

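A small unnamed cluster of 47 cells, 46 of them from mouse 4, had 503 to 823 UMIs per cell and a median of 10 *Scgb1a1* UMIs. Without the cell that held most (168 UMIs), *Scgb1a1* was 1.65% of its UMIs, against 1.201% of all deposited UMIs of mouse 4. The cluster held 35 UMIs of *Scgb3a2*, 8 of *Scgb3a1*, 1 each of *Bpifa1*, *Foxj1* and *Ccdc153* and none of *Tmem212* and *Dynlrb2*. These cells joined the airway cells when the members were allowed among the variable genes.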
